A study of Mus musculus with 21 samples.

Results

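Neurons of the mouse cortex were set against Neuro2a, a mouse neuroblastoma line, by polyA RNA sequencing, with 3 libraries of NeuN-sorted nuclei from wild-type (WT) mice and 3 libraries of Neuro2a cultures, 6 of the 21 libraries of the series. The members were the 3 WT libraries of the mouse table and the 3 control libraries of library set 8 of the Neuro2a table, joined on the gene identifier. The series was made to test CRISPR activation of Scn2a, in which a guide RNA leads a cutting-deficient Cas9, joined to the activator VP64, to the promoter of a gene. WT mice were on a C57BL/6J background, their age is not given in the labels, and each nuclear sample started from 200 mg of cortex. The labels describe a viral injection into medial prefrontal cortex for the mice of the series but do not say whether WT mice received one, and the transgene sadCas9-VP64 was listed at 0 in all 3 WT libraries. The Neuro2a cultures had received the sadCas9-VP64 plasmid without a guide RNA, so they are transfected cells and not untreated ones. That transgene stood at 318 to 370 counts per M reads (CPM; M, 1000000) in them, against 2498 to 2646 CPM in the control cultures of library set 7. Whether the 3 cultures were separate passages is not stated, so the spread between them may be technical.

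Nuclei were compared with whole cells, and this runs through every result. RNA came from sorted nuclei through 1 extraction kit and from lysed cultures through another, in separate experiments, so cell type, cell compartment, kit and experiment cannot be told apart. Nuclei hold newly made and retained RNA, while whole cells also hold the RNA of the cytoplasm. In bulk samples, fewer cells of a type and less RNA per cell cannot be told apart either. Estimated depth was 15.5 to 19.7 M reads in the nuclei and 15.8 to 21 M in Neuro2a. Levels are CPM, which scale each library to its own total and not to gene length, so they were compared between groups for the same gene and not between genes.

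NeuN is the protein of Rbfox3, a splicing regulator of mature neurons, and sorting on it enriches neuronal nuclei. A mature cortical neuron has left the cell cycle, fires through voltage-gated sodium channels gathered at the axon initial segment, and signals at synapses built from dedicated release and receptor proteins. Neuroblastoma arises from the sympathoadrenal branch of the neural crest, whose cells carry catecholamine enzymes, the receptor Ret and transcription factors such as Hand2. Neuro2a cells divide in culture and are widely used as a stand-in for neurons.

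The groups differed across most of the transcriptome. Of 17064 genes with a row in both tables and at least 0.5 CPM in at least 3 of the 6 libraries, 10613 (62.2%) differed by more than 2-fold at an adjusted p under 0.05 (limma's treat test on log2(CPM + 0.5), Benjamini-Hochberg over all genes tested). Such genes are said to be higher in a group. Differences are nuclei minus Neuro2a on the log2(CPM + 0.5) scale, and a pair of levels is the mean ± SD of the 3 nuclei libraries against that of the 3 Neuro2a libraries. There were 5942 higher in the nuclei (34.8% of those tested) and 4671 higher in Neuro2a (27.4%), and 6451 (37.8%) were not called. At least 10-fold apart were 2057 genes higher in the nuclei and 1478 higher in Neuro2a. At least 100-fold apart were 323 and 170. The median difference, nuclei minus Neuro2a, was 0.30 on the log2 scale. Because so many genes were called, a share of called members is to be read against these percentages. The libraries of the groups did not overlap, in either direction, for 91.4% of genes tested, so separation alone does not set a gene apart. For a single gene, an exact permutation test of 3 against 3 libraries cannot give a two-sided p below 0.1.

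Promoters of 8 genes are shown, for cell cycle genes, which were higher in Neuro2a, and synaptic genes, which were higher in the nuclei. They were picked after the values were known, from genes of the mitosis and DNA replication lists and of the synaptic and neuronal lists whose RefSeq promoter (GRCm38.p6) held the motif searched, and each shows the 250 bases before the start site, 5′ to 3′ on the gene's strand. In the first 4, from genes of the dividing cell, capitals mark the CHR element (TTTGAA) and the CCAAT box (CCAAT), both searched on both strands. These are textbook elements of cell cycle promoters. The genes are Cdk1, the kinase that drives entry into mitosis, Top2a, which untangles replicated DNA, Cdc20, an activator of the anaphase-promoting complex, and Mki67, the proliferation antigen Ki-67.
Cdk1 promoter, chr10:69352913-69353162, - strand: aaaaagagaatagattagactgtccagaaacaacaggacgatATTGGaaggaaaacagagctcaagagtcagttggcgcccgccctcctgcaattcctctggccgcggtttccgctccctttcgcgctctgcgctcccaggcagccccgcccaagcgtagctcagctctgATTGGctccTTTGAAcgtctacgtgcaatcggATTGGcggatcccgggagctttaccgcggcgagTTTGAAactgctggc
Top2a promoter, chr11:99024190-99024439, - strand: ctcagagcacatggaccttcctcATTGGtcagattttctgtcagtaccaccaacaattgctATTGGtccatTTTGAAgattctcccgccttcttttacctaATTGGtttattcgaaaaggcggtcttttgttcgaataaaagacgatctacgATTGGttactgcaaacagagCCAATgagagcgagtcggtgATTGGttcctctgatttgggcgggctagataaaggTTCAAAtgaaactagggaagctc
Cdc20 promoter, chr4:118437344-118437593, - strand: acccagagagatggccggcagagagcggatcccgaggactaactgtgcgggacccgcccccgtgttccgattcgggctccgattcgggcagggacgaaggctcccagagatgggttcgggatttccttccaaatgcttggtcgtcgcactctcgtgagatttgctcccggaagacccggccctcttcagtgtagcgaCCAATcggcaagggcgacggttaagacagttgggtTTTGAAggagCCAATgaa
Mki67 promoter, chr7:135716380-135716629, - strand: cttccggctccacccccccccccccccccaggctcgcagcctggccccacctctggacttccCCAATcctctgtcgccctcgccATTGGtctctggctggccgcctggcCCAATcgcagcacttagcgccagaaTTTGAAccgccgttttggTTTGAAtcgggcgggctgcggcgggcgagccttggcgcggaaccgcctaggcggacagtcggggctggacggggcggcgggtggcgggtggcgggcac

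In the other 4, from synaptic genes, capitals mark matches to the conserved letters of RE1 (both strands, up to 2 mismatches), the element bound by the repressor REST. Grin1 and Gria2 encode subunits of NMDA and AMPA glutamate receptors, Syn1 encodes the vesicle protein synapsin I, and Rph3a encodes rabphilin, a vesicle protein that binds Rab3. Rph3a has 3 RefSeq promoters, and only a promoter with a match is shown.
Grin1 promoter, chr2:25319188-25319437, - strand: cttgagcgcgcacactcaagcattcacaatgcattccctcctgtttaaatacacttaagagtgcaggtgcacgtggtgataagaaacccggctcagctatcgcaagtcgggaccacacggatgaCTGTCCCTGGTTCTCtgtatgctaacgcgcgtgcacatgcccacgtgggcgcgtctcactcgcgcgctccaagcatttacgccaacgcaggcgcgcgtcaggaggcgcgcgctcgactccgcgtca
Gria2 promoter, chr3:80802836-80803085, - strand: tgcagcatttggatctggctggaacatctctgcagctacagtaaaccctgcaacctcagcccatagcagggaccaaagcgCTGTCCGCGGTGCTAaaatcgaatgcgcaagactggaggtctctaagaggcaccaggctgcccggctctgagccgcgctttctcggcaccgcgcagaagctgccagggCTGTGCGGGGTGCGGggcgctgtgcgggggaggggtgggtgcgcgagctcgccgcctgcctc
Syn1 promoter, chrX:20920919-20921168, - strand: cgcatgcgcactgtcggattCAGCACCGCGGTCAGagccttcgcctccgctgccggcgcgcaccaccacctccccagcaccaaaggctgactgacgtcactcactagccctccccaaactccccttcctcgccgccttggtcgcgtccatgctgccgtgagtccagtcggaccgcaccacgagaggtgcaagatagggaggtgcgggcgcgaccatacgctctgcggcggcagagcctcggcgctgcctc
Rph3a promoter, chr5:121009539-121009788, - strand: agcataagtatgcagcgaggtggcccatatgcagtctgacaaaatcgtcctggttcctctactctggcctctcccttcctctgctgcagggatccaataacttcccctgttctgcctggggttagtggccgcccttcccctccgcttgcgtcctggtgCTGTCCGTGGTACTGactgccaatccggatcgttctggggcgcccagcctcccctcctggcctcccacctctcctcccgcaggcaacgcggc

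Over whole windows of 300 bases (250 before to 50 after the start), the CHR element was found in 20 of 28 promoters of mitosis genes (71.4%) and in 12.1% of 14466 promoters of genes tested. CHR element and CCAAT box stood together in 18 of the 28 (64.3%), against 4.83% of promoters of genes tested. CHR matches also lay near the start, with 20 of 26 matches (76.9%) beginning within 60 bases of it, against 27.0% of 1917 matches in promoters of genes tested. Among promoters of DNA replication factors, 6 of 32 (18.8%) held the E2F form TTTCCCGC and 5 (15.6%) the form TTTGGCGC, against 1.83% and 0.906% over genes tested. RE1-like matches stood in 3 of 32 presynaptic promoters (9.38%) and 3 of 37 glutamate receptor and scaffold promoters (8.11%), against 2.16% over genes tested, and also in 2 of 28 mitosis promoters (7.14%), so these small counts do not set the synaptic lists apart. Windows were counted and not genes. A gene can have several windows that overlap, so the same match may count more than once. A match is a run of letters in a window and not a measured site.

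**Figure D1:**
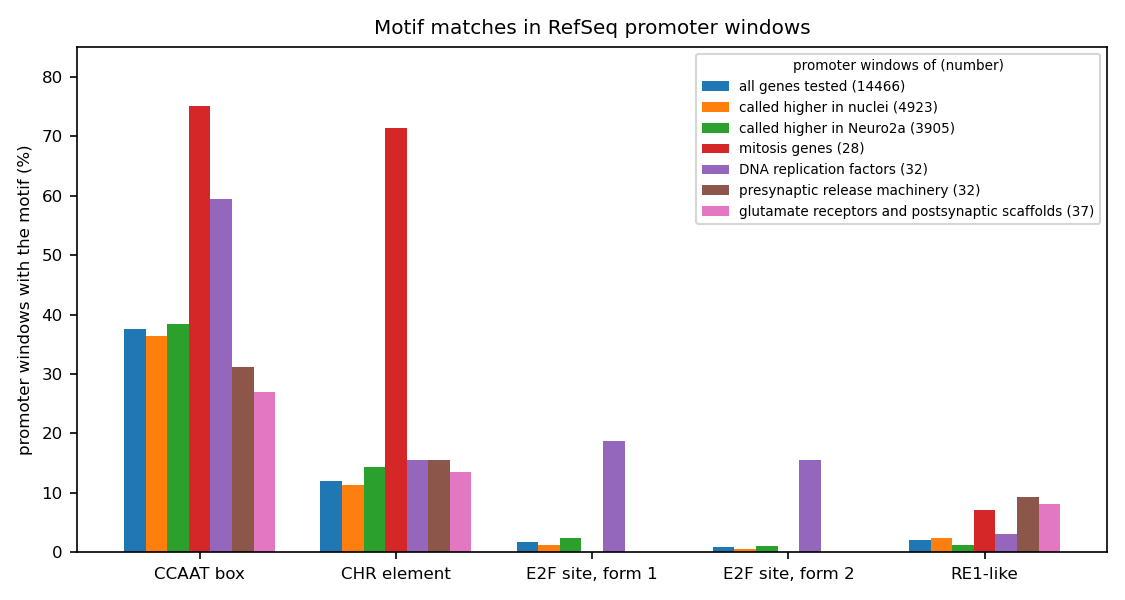
Share of RefSeq promoter windows (%, vertical axis) that hold each motif (horizontal axis), as bars for genes tested, genes called in each direction and 4 gene lists, with the number of windows in brackets. The CHR bar of the mitosis genes stands at 71.4% against 12.1% for all genes tested, and the E2F bars stand out for DNA replication factors.

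Neuronal markers were present in the library group labelled as neurons. The nuclei were sorted on NeuN, the protein of Rbfox3, so the level of Rbfox3 is not separate support for that label. Rbfox3 stood at 316, 282 and 267 CPM in the nuclei and 0.382, 0.179 and 0.126 CPM in Neuro2a, a difference of 8.64 ± 0.15 (SE) with an adjusted p of 1.29e-10. The groups did not overlap, as for 91.4% of genes tested, and the highest Neuro2a library was below 1 CPM. Slc17a7, the vesicular glutamate transporter of cortical excitatory neurons, stood at 895, 1001 and 935 CPM in the nuclei and 1.1, 0.597 and 0.695 CPM in Neuro2a. Gad1, which makes GABA, stood at 86.8, 86.9 and 110.1 CPM in the nuclei and was listed at 0 in the 3 Neuro2a libraries. Markers of excitatory and of inhibitory neurons were both present in every WT library.

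Of 14 excitatory markers tested, 9 were higher in the nuclei, 0 in Neuro2a and 5 were not called, with a median difference of 6.54. Rasgrf2 (230.2 ± 43.5 against 0.0318 ± 0.0551 CPM) and Lamp5 (145 ± 20.2 against 0.0211 ± 0.0365 CPM) were among the widest apart, and Mef2c, an activity-regulated transcription factor, stood at 156, 159.8 and 156 CPM in the nuclei and was listed at 0 in Neuro2a. Of 13 inhibitory markers tested, 10 were higher in the nuclei and 0 in Neuro2a (9 and 1 under quantile scaling), with a median of 4.55. They included the secreted protein Reln (71.6 ± 3.53 against 0.0199 ± 0.0345 CPM). Striatal markers were present too, with 5 of 6 higher in the nuclei, and their summed level ranged from 391 to 1015 CPM between the WT libraries. The dopamine receptor Drd1 stood at 11, 12.7 and 31.9 CPM in the nuclei, and Ppp1r1b, which encodes DARPP-32, at 63.2, 67.4 and 133 CPM. WT replicate 3 was the highest of the 3 for the summed list and for both genes. Without that library 5 of 6 were called higher in the nuclei, with a median of 3.90.

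Lists of other brain cell types split between the groups. Of 10 astrocyte markers tested, 5 were higher in the nuclei, 3 in Neuro2a and 2 were not called, and their summed level was 277 to 315 CPM in the nuclei and 241 to 269 CPM in Neuro2a. Slc1a2, the astrocyte glutamate transporter, made up most of the sum in the nuclei at 259, 230.4 and 237 CPM, while Slc1a3, its relative in astrocytes, stood at 4.71, 4.21 and 3.86 CPM. The transcription factor Sox9 (3.88 ± 1.58 against 123 ± 5.24 CPM), the receptor Fgfr3 (3.47 ± 0.589 against 42 ± 2.29 CPM) and the aldolase Aldoc (6.75 ± 0.393 against 40.2 ± 2.36 CPM) were the astrocyte markers higher in Neuro2a. Of 5 oligodendrocyte markers tested, 4 were higher in the nuclei and 0 in Neuro2a (1 under quantile scaling), with sums of 107 to 130.1 CPM and 11.2 to 11.5 CPM. Of 6 microglia markers, 4 were higher in the nuclei, a count of 1 under quantile scaling, and 1 was higher in Neuro2a. The microglial receptor Csf1r stood at 6.9, 7.6 and 5.26 CPM in the nuclei.

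Vascular and oligodendrocyte precursor lists had more calls toward Neuro2a. Of 10 vascular markers tested, 5 were higher in Neuro2a and 2 in the nuclei (7 and 0 under quantile scaling). Their sums were 11 to 14.3 CPM in the nuclei and 183 to 197 CPM in Neuro2a. Pdgfrb, a pericyte receptor, averaged 2.16 ± 0.376 against 113 ± 6.48 CPM and smooth muscle actin, Acta2, 0.0845 ± 0.146 against 51.4 ± 8.13 CPM. Slco1a4, an endothelial transporter with a row in the mouse table alone, was listed at 0 in the 3 WT libraries and is named after its values were seen. Of 4 precursor markers tested, 3 were higher in Neuro2a, including Pdgfra (0.343 ± 0.318 against 17.4 ± 2.17 CPM), and 1, Vcan (27 ± 4.27 against 7.62 ± 0.668 CPM), was higher in the nuclei, though it was not called against library set 7. The part of non-neuronal nuclei in the differences was not tested.

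Neuro2a shared some pan-neuronal transcripts with the nuclei at like levels and held others at low levels. Of 28 pan-neuronal genes tested, 22 were higher in the nuclei, 2 in Neuro2a and 4 were not called, with a median of 2.59. Far apart were Nefm, the medium neurofilament (85.6 ± 10 against 0.0159 ± 0.0275 CPM), the dendritic protein Map2 (463 ± 55.3 against 7.36 ± 1.19 CPM), the fusion protein Snap25 (782 ± 17.9 against 12.8 ± 0.232 CPM) and the kinase subunit Camk2a (1873 ± 79.5 against 29.8 ± 1.21 CPM). Stmn2, a microtubule regulator of growing axons, stood at 51.1, 52.3 and 50.8 CPM in the nuclei and 53.4, 53.8 and 57.1 CPM in Neuro2a, and Gap43, a growth cone protein, at 24.3, 31 and 23 CPM in the nuclei and 24.7, 28.7 and 27.5 CPM in Neuro2a. Neither was called, and their differences were -0.09 and -0.05. Tubb3, the neuronal beta-tubulin, stood at 67.6, 72.2 and 58.7 CPM in the nuclei and 162, 169.6 and 167 CPM in Neuro2a, higher in Neuro2a by a difference of -1.33 ± 0.08 (SE). Elavl2, an RNA-binding protein of neurons, was the other gene of the list higher in Neuro2a (32.8 ± 1.03 against 78.4 ± 2.02 CPM). Neither was called once mitochondrial, nuclear retained and transgene rows were left out of the library totals (differences -1.17 and -1.09).

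**Figure D2:**
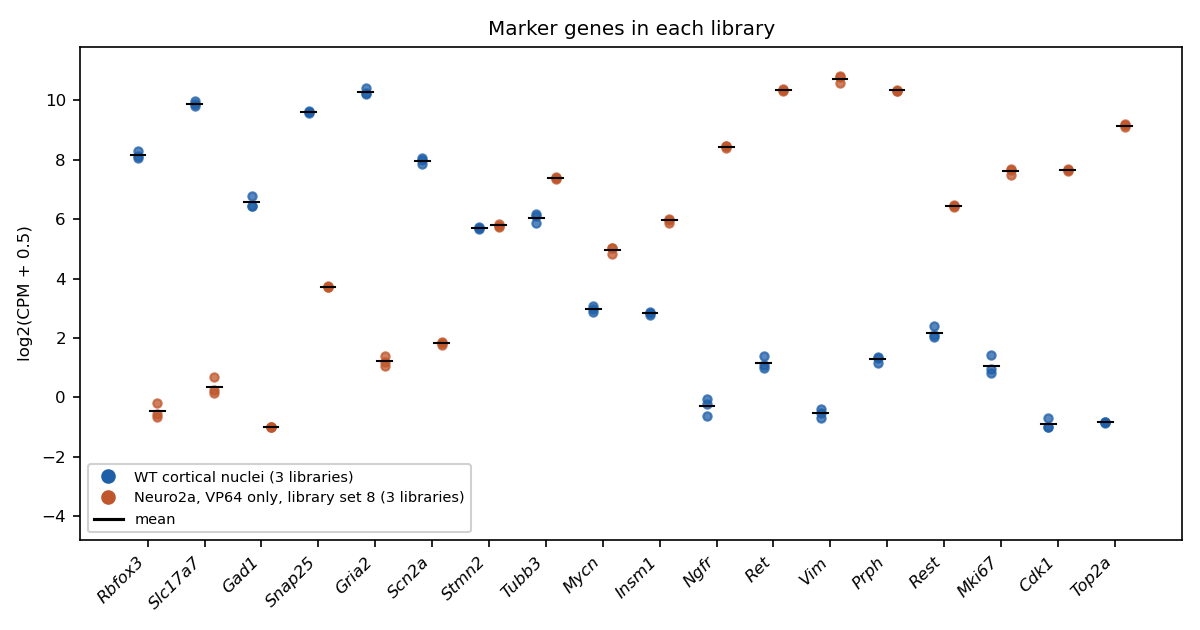
Level of 18 genes, chosen after their values were seen, in each of the 3 WT nuclei and 3 Neuro2a libraries on a log2(CPM + 0.5) scale, with bars for the group means. Rbfox3, Slc17a7, Gad1, Snap25, Gria2 and Scn2a lie higher in the nuclei, Stmn2 lies near the same height in both groups, and Ret, Vim, Prph, Rest, Cdk1 and Top2a lie higher in Neuro2a.

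Sympathoadrenal markers went the other way. Of 20 tested, 11 were higher in Neuro2a, 3 in the nuclei and 6 were not called (median -1.73). Against the control cultures of library set 7 the counts were 9 and 5 of 19 tested. Ret, the receptor of GDNF family ligands, stood at 2.15, 1.47 and 1.61 CPM in the nuclei and 1275, 1342 and 1317 CPM in Neuro2a, a difference of -9.20 ± 0.11 (SE). Ngfr, the low-affinity neurotrophin receptor, stood at 0.358, 0.152 and 0.45 CPM in the nuclei and 355, 353 and 335 CPM in Neuro2a. The libraries of the groups did not overlap for either receptor, as for 91.4% of genes tested. Gata2, a transcription factor of the lineage, averaged 0.0398 ± 0.0689 against 196 ± 2.66 CPM, and Dbh, which turns dopamine into noradrenaline, 0.191 ± 0.151 against 23.7 ± 2.33 CPM. Th, the first enzyme of catecholamine synthesis, was low in both at 0.64 ± 0.349 against 1.77 ± 0.0939 CPM and was not called, though it was called higher in Neuro2a under quantile scaling (difference -1.93, adjusted p = 0.00147 by limma's treat) and by a test of any difference (limma's eBayes). Mycn, amplified in many human neuroblastomas, averaged 7.34 ± 0.495 against 30.7 ± 2.64 CPM, a difference of -1.99 that was -0.86 and not called with the control cultures of library set 7 in place of set 8. Eya1 (5.93 ± 0.624 against 0.36 ± 0.229 CPM) and the granin Chga (134 ± 19.6 against 22.6 ± 1.11 CPM) were among the 3 higher in the nuclei.

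The lineage factors Hand2 and Phox2a have a row in the Neuro2a table and none in the mouse table, so no difference was computed. Hand2 stood at 373 ± 5.78 CPM and Phox2a at 75 ± 3.85 CPM (SD, n = 3). The posterior patterning gene Hoxc10, also in the Neuro2a table alone, stood at 71 ± 3.24 CPM. Rows in the mouse table alone included the long noncoding RNA Snhg11 at 22810 ± 2631 CPM and Adgrb1, an adhesion receptor, at 1499.5 ± 117 CPM. Of 39008 rows in the mouse table and 31553 in the Neuro2a table, 26759 were in both. Rows of the mouse table alone held 6.21 to 6.51% of the CPM of a WT library and those of the Neuro2a table alone 0.419 to 0.430% of a Neuro2a library. A gene without a row was not read as 0.

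Sodium channels, the family the study was built around, were nearly all higher in the nuclei. Of 10 subunits tested, 9 were higher in the nuclei and 0 in Neuro2a, with a median of 5.12. Scn2a, the target of the activator, stood at 229.5, 255 and 266 CPM in the nuclei and 2.86, 3.05 and 3.16 CPM in Neuro2a, a difference of 6.15 ± 0.09 (SE) with an adjusted p of 7.68e-11. Every WT library was above every Neuro2a library, but Scn2a was detected in all 3 cultures. Scn1a, the main channel of fast-spiking interneurons, averaged 325 ± 43.1 against 0.352 ± 0.252 CPM, and Scn8a, the channel of the mature axon initial segment, 740.4 ± 60 against 38.1 ± 1.36 CPM. Scn3a averaged 139.8 ± 23.5 against 1.61 ± 0.192 CPM, Scn3b 124 ± 31.3 against 8.94 ± 1.8 CPM and the leak channel Nalcn 90.6 ± 10.4 against 0.0358 ± 0.0316 CPM. Scn7a stood at 12, 10.1 and 10.7 CPM in the nuclei and was listed at 0 in Neuro2a. Scn9a, the channel of peripheral sensory and sympathetic neurons, was the exception at 11.3, 13.4 and 24.2 CPM in the nuclei and 36.1, 35.7 and 30.9 CPM in Neuro2a, and it was not called. Its 3 Neuro2a libraries were all above the 3 WT libraries, and without WT replicate 3 it was called higher in Neuro2a, at a difference of -1.43.

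Genes of the axon initial segment and of other channels were also higher in the nuclei. All 11 axon initial segment genes tested were higher in the nuclei (median 5.23), among them the adhesion proteins Nfasc (509 ± 23.3 against 0.779 ± 0.234 CPM) and Nrcam (314 ± 20.1 against 4.11 ± 0.201 CPM). Of 29 potassium and HCN channels, 26 were higher in the nuclei and 0 in Neuro2a. Kcnt1, a sodium-activated channel, stood at 928, 849.9 and 869 CPM in the nuclei and 0, 0 and 0.0632 CPM in Neuro2a. Of 17 calcium channel subunits, 15 were higher in the nuclei and 0 in Neuro2a, led by Cacna2d1 (435 ± 20.9 against 0.0529 ± 0.0485 CPM).

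Synaptic genes were higher in the nuclei on both sides of the synapse. Of 32 release genes, 28 were higher in the nuclei, and Syn3 (3.24 ± 0.856 against 9.48 ± 1.01 CPM) was the 1 higher in Neuro2a, a call lost when any 1 of WT replicates 1 and 2 and Neuro2a replicates 4 and 6 was left out (median 3.83). Rph3a averaged 165 ± 6.11 against 0.0756 ± 0.0928 CPM, Syn1 187 ± 30.9 against 5.07 ± 0.0564 CPM and the active zone protein Rims1 139.9 ± 21.2 against 0.0199 ± 0.0345 CPM. Of 31 glutamate receptor and scaffold genes, 29 were higher in the nuclei and 0 in Neuro2a (median 4.67). Gria2 stood at 1209, 1202 and 1379.6 CPM in the nuclei and 1.76, 2.15 and 1.58 CPM in Neuro2a, and Gria3 at 895, 938 and 990.1 CPM in the nuclei and at 0 in every Neuro2a library. Grin1 averaged 491 ± 31.3 against 1.43 ± 0.196 CPM and the scaffold Shank3 184 ± 16.6 against 0.0358 ± 0.0316 CPM. Of 9 GABA and glycine receptor subunits, 8 were higher in the nuclei. Among 26 synaptic adhesion genes, 20 were higher in the nuclei and Tenm3 (20.1 ± 6.07 against 153 ± 12 CPM) was the 1 higher in Neuro2a.

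**Figure D3:**
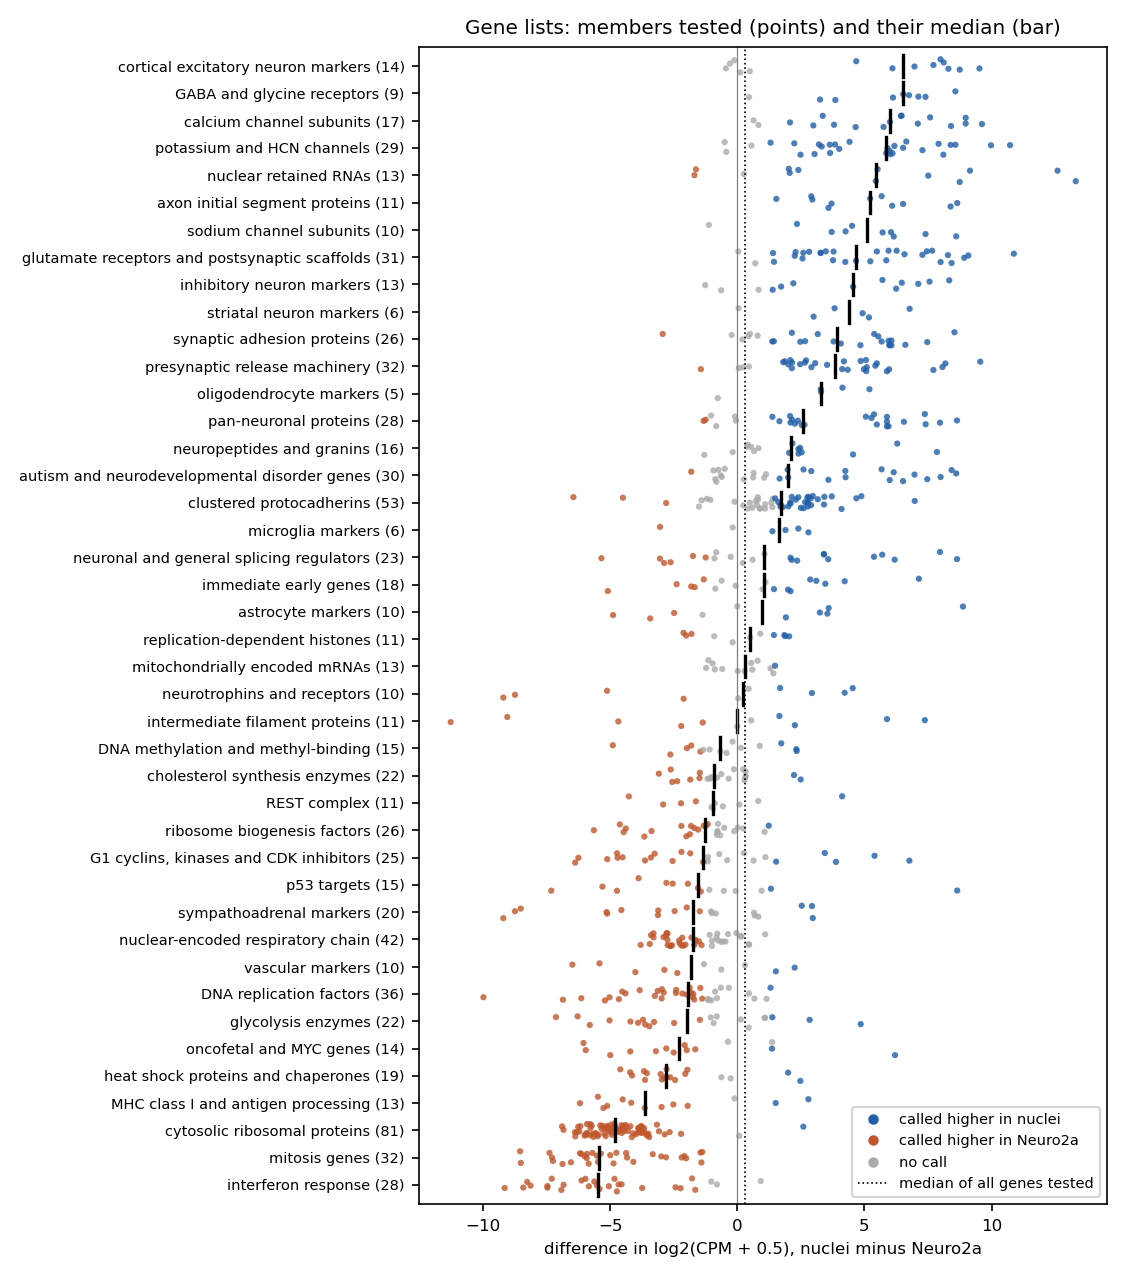
Difference in log2(CPM + 0.5), nuclei minus Neuro2a (horizontal axis), for each tested member (points, coloured by call) of each gene list with at least 5 tested members, with the list's median (bar) and the number tested in brackets. Channel and synapse lists lie to the right of the median of all genes tested (dotted, 0.30), and mitosis, ribosomal protein and interferon lists lie to the left.

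Cell cycle genes were higher in the dividing line. All 32 mitosis genes tested were higher in Neuro2a, where 27.4% of genes tested were. For each of them the 3 Neuro2a libraries were all above the 3 WT libraries, as for 41.4% of genes tested, while 91.4% of genes tested did not overlap in one direction or the other. The list's median difference was -5.42. Cdk1 stood at 0.119, 0 and 0 CPM in the nuclei and 195, 202 and 204 CPM in Neuro2a, and Ccnb1, its cyclin, at 0.179, 0 and 0.322 CPM in the nuclei and 236, 236 and 244 CPM in Neuro2a. The nuclei held Cdk1 at no more than a few reads. Ube2c, which marks mitotic proteins for destruction, averaged 0.402 ± 0.267 against 147 ± 4.3 CPM. Of 36 DNA replication factors, 25 were higher in Neuro2a, 1 in the nuclei and 10 were not called (median -1.93). Top2a stood at 0.0596, 0.0507 and 0.0643 CPM in the nuclei and 544, 583 and 572 CPM in Neuro2a, and the helicase subunit Mcm3 averaged 0.12 ± 0.13 against 70.5 ± 3.5 CPM. The clamp loader subunit Rfc2 was the gene higher in the nuclei (79.9 ± 11.7 against 31.8 ± 0.377 CPM), and it was not called against library set 7 (difference 0.87).

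G1 regulators were split between the groups. Of 25 tested, 13 were higher in Neuro2a and 5 in the nuclei. Ccnd1 averaged 11.6 ± 0.963 against 318 ± 4.5 CPM, whereas Ccnd2 stood at 50.1, 55.1 and 57.1 CPM in the nuclei and was listed at 0 in Neuro2a. Cdk5, a kinase of postmitotic neurons (197 ± 19.1 against 12.8 ± 0.358 CPM), and its activator Cdk5r1 (98.5 ± 7.69 against 1.85 ± 0.265 CPM) were higher in the nuclei. Among oncofetal and MYC genes, 10 of 14 were higher in Neuro2a, including Myc (5.05 ± 1.06 against 342 ± 22.9 CPM) and Dlk1 (3.22 ± 3.63 against 181 ± 7.24 CPM), and 2 were higher in the nuclei, Peg3 (1264 ± 35.9 against 16.7 ± 0.926 CPM) and Lin28b (43.1 ± 9.13 against 16.2 ± 1.39 CPM). Lin28b was not called when any 1 of WT replicates 2 and 3 and Neuro2a replicates 4 and 6 was left out, or against library set 7 (difference 0.86).

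Intermediate filament genes differed by type. Vim, the filament of mesenchymal and progenitor cells, stood at 0.119, 0.253 and 0.193 CPM in the nuclei and 1552, 1764 and 1798 CPM in Neuro2a, a difference of -11.28 ± 0.10 (SE) and the largest toward Neuro2a among genes that averaged 20 CPM or more in the higher group, did not overlap between groups and carry no predicted or clone name. Prph, the peripheral neuron filament, stood at 2.09, 2.03 and 1.74 CPM in the nuclei and 1275, 1288 and 1321 CPM in Neuro2a. Nefl stood at 29.1, 30 and 28.1 CPM in the nuclei and was listed at 0 in Neuro2a. The groups did not overlap for any of the 3, as for 91.4% of genes tested.

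Related genes shifted against each other within a library, a measure in which library scaling and gene length nearly cancel between groups. Of 26 pairs of a neuronal gene and a broadly expressed relative, 25 had rows in both tables. In 24 pairs the log2 ratio of the neuronal gene to its relative was higher in all 3 WT libraries than in all 3 Neuro2a libraries, and the median shift over the 25 was 4.75. In 1 pair it was higher in all 3 Neuro2a libraries. In 8 pairs the neuronal gene was called higher in the nuclei and its relative higher in Neuro2a. Of single genes tested, 34.8% were called higher in the nuclei and 27.4% higher in Neuro2a, and 91.4% did not overlap between groups. Separation of the libraries alone therefore does not set the pairs apart. The pairs were chosen with earlier results of these data known, and no share over other pairs was computed. The enolases Eno2 and Eno1 had a log2 ratio of 0.89 ± 0.05 in the nuclei and -4.40 ± 0.17 in Neuro2a. The splicing repressors Ptbp2 and Ptbp1, which replace each other as neurons differentiate, had a ratio of 1.61 ± 0.14 in the nuclei and -3.41 ± 0.06 in Neuro2a. Chromatin remodeller subunits moved the same way, with 3.03 ± 0.21 in the nuclei and -5.40 ± 0.14 in Neuro2a for Actl6b and Actl6a.

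**Figure D4:**
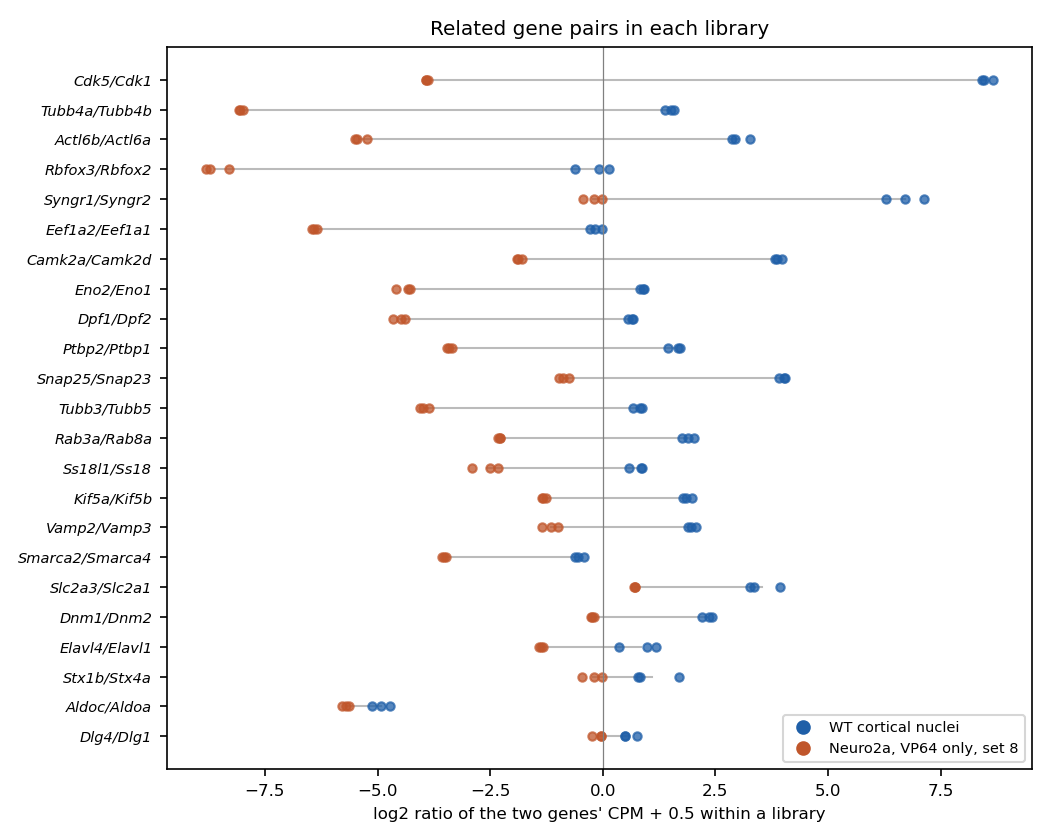
Log2 ratio of CPM + 0.5 between a neuronal gene and a related gene (horizontal axis) in each WT nuclei and Neuro2a library, for 23 of the 25 pairs ordered by the shift between group means (grey lines). In each pair drawn, all 3 nuclei points lie to the right of the Neuro2a points. Of 24 pairs with that order 23 are drawn, and the 1 pair that ran the other way is not drawn.

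Rest and some other regulators differed, while others were not called. Rest, the repressor of neuronal genes outside the nervous system, stood at 3.82, 3.6 and 4.76 CPM in the nuclei and 83.8, 89.4 and 87 CPM in Neuro2a, a difference of -4.27 ± 0.12 (SE). Of 11 genes of the REST complex tested, 4 were higher in Neuro2a, 1 in the nuclei and 6 were not called. Among all genes tested, 27.4% were higher in Neuro2a and 34.8% in the nuclei. Genes called higher in the nuclei held RE1-like matches in 2.50% of 4923 promoters and genes called higher in Neuro2a in 1.28% of 3905. The share over genes tested, given with the promoters above, lay between these values. A link between the level of Rest and these matches was not tested. Of 15 methylation and methyl-binding genes tested, 3 were higher in the nuclei, 5 in Neuro2a and 7 were not called. Uhrf1, which maintains methylation at replication, was higher in Neuro2a (3.04 ± 0.363 against 105 ± 3.7 CPM), as was the de novo methyltransferase Dnmt3b (2.13 ± 0.0914 against 15.8 ± 1.18 CPM). The other de novo enzyme, Dnmt3a, was higher in the nuclei (390.1 ± 45.9 against 117 ± 2.15 CPM), and the maintenance enzyme Dnmt1 was not called (98.3 ± 5.35 against 112 ± 5.12 CPM). Immediate early genes were mixed, with 8 of 18 higher in the nuclei and 5 in Neuro2a, the latter 3 against library set 7. Npas4, induced by neuronal activity, averaged 75.6 ± 10 against 0.0358 ± 0.0316 CPM, and Ier2 4.84 ± 0.525 against 181 ± 6.66 CPM.

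Clustered protocadherins, cell-surface proteins that give neurons an identity, included members of the gamma cluster called in opposite directions. Of 53 tested, 30 were higher in the nuclei, 3 in Neuro2a (7 under quantile scaling) and 20 were not called. Pcdhgc4 stood at 62.4, 81.6 and 87.8 CPM in the nuclei and 0.0662, 0.0818 and 0.19 CPM in Neuro2a. Pcdhgc3 stood at 1.61, 1.45 and 0.413 CPM in the nuclei and 137, 141 and 127 CPM in Neuro2a. The groups did not overlap for either, as for 91.4% of genes tested, and the directions were opposite. Isoforms of the cluster share their last exons, so how reads were assigned between them is uncertain.

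Autism and neurodevelopmental disorder genes, the group to which Scn2a belongs, were higher in the nuclei for 17 of 30 and higher in Neuro2a for 1, with 12 not called (median 1.99). Shank3, Grin1 and Scn1a, whose values are given with the synaptic and sodium channel genes, were among those higher in the nuclei.

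Most ribosomal protein genes and most RNAs listed as nuclear retained were called in opposite directions. Cell compartment and cell type cannot be told apart in these differences. Of 81 cytosolic ribosomal protein genes tested, 79 were higher in Neuro2a and 1 in the nuclei (median -4.81), and their summed level was 2182 to 2910.2 CPM in the nuclei and 70725 to 73132 CPM in Neuro2a. Rps4x averaged 25.7 ± 2.76 against 3101 ± 72.3 CPM. The elongation factor Eef1a1 stood at 152, 166 and 142 CPM in the nuclei and 12569, 12493 and 13046 CPM in Neuro2a. Many of these genes have near-identical copies, so single values are uncertain. Of 13 nuclear retained RNAs, 10 were higher in the nuclei and 2, Norad, which is known as a largely cytoplasmic RNA, and Pvt1, in Neuro2a. Meg3, an imprinted noncoding RNA, stood at 29128, 29425 and 25419 CPM in the nuclei and 2.24, 1.67 and 2.97 CPM in Neuro2a, the largest difference toward the nuclei at 13.31 ± 0.15 (SE) among genes that met the same criteria as Vim. Miat stood at 3210.2, 3296 and 2816 CPM in the nuclei and was listed at 0 in Neuro2a. Malat1 stood at 2667, 2092 and 3471 CPM in the nuclei and 54.4, 56.4 and 63.9 CPM in Neuro2a.

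Mitochondrial transcripts did not follow the ribosomal proteins. Of 13 mRNAs of the mitochondrial genome, 1, mt-Nd4l, was higher in the nuclei and 12 were not called (median 0.29). Their summed level was 7412 to 11724 CPM in the nuclei and 8838 to 9988 CPM in Neuro2a. WT replicate 2 held the highest sum and WT replicate 3 the lowest, and the Neuro2a sums lay between them. mt-Nd4l was not called without WT replicate 1, without WT replicate 2 or without any 1 of the 3 Neuro2a libraries, and 3 of the list were called without WT replicate 3 or under quantile scaling. mt-Co1 stood at 3032, 3628 and 2259.5 CPM in the nuclei and 2932, 2766 and 2931 CPM in Neuro2a. Of 42 nuclear-encoded respiratory chain genes, 26 were higher in Neuro2a and 0 in the nuclei (median -1.75).

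Among metabolic and stress genes, most calls were toward Neuro2a. Of 22 glycolysis genes, 12 were higher in Neuro2a and 3 in the nuclei, the latter 5 against library set 7. Hk2, the hexokinase of many tumours, averaged 0.697 ± 0.452 against 159 ± 5.49 CPM and Ldha, which makes lactate, 29.7 ± 1.38 against 2355 ± 163 CPM, while Pfkfb2 (146 ± 12.7 against 4.55 ± 0.099 CPM) was higher in the nuclei. Of 19 chaperone genes, 2 were higher in the nuclei (0 under quantile scaling) and 15 in Neuro2a, led by Hsp90ab1 (219 ± 25.1 against 5298 ± 208 CPM). Of 26 ribosome biogenesis genes, 1 was higher in the nuclei and 15 in Neuro2a, including Npm1 (39.8 ± 6.45 against 1996 ± 47.4 CPM) and Ncl (52.4 ± 7.01 against 1099.8 ± 31 CPM). Of 22 cholesterol synthesis genes, 7 were higher in Neuro2a, 2 in the nuclei and 13 were not called.

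Interferon response genes were higher in Neuro2a. Of 28 tested, 25 were higher in Neuro2a and 0 in the nuclei, with a median of -5.47. Bst2, an antiviral tether, stood at 0.239, 0.203 and 0.0643 CPM in the nuclei and 373, 375 and 384 CPM in Neuro2a, and Oasl2 averaged 0.235 ± 0.21 against 244 ± 4.59 CPM and Rsad2 0.0368 ± 0.0322 against 150.3 ± 7.64 CPM. With the control cultures of library set 7, which held more sadCas9-VP64, in their place, 26 of 28 were higher in Neuro2a and the median was -6.56. Both sets were transfected, and the part of transfection in the difference was not tested. MHC class I and antigen processing genes were higher in Neuro2a for 10 of 13, including H2-K1 (2.91 ± 0.545 against 246 ± 4.4 CPM) and B2m (7.85 ± 1.66 against 285 ± 5.96 CPM). The class I genes H2-T23 (23.7 ± 2.14 against 2.99 ± 0.426 CPM) and H2-T22 (22.6 ± 0.759 against 7.61 ± 0.192 CPM) were the 2 higher in the nuclei, a count of 1 against library set 7. The p53 list of 15 tested genes holds the gene of p53 itself beside its targets. Of these 15, 9 were higher in Neuro2a, the gene of p53 among them. The 2 higher in the nuclei were Plk2 (236 ± 7.99 against 0.0887 ± 0.0472 CPM) and Bax (114 ± 22.5 against 44.7 ± 3.7 CPM). Bax was not called when any 1 of WT replicates 1 and 2 and Neuro2a replicates 4 and 6 was left out, or against library set 7.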

How the data were processed

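PolyA RNA libraries of NeuN-sorted cortical nuclei from 3 WT mice and of 3 Neuro2a cultures with sadCas9-VP64 alone were compared. Per the labels' protocols, nuclei were isolated with a Singulator, sorted, and extracted with the miRNeasy kit, and Neuro2a RNA was extracted with the RNeasy kit. Per the submitters' processing notes, STAR 2.7.8a, featureCounts, DESeq2 1.44 and R 4.4 were used with mm39 and GRCm39, with no role or order given; strandedness and the treatment of reads with several alignments are not given in the sources used here. The authors deposited CPM in 2 tables, in which each library sums to 1000000. The deposited tables also hold the authors' log2 fold changes, p-values and other columns of their own comparisons, which were not used here.

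The value of 1 read was taken as the most frequent CPM above 0. Within a tolerance of 0.01, 80.0 to 81.0% of values above 0 in the nuclei and 72.0 to 73.1% in Neuro2a were whole reads, so no count test was run. The tables were made separately; levels were set across them because each library is scaled to its own total. Transgene rows were left out of tests. Tests covered genes that reached 0.5 CPM in 3 or more of the 6 libraries and were made with lmFit and treat (trend on, for more than 2-fold) of limma 3.58.1, run in R 4.3.3, on log2(CPM + 0.5), which understates differences of low genes. The Benjamini-Hochberg adjustment ran over all genes tested, and the threshold was 0.05. The fit was run on simulated data in which both groups were drawn from Neuro2a means and few genes were changed. That setting is unlike these data, where most genes differed, so it cannot show how the fit performs here. SE is that of the fit, and SD is between libraries.

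The members, the 45 gene lists, the pairs and the motifs were chosen with earlier results of these data known. The rule for names took all sodium channel, pan-neuronal, sympathoadrenal and mitochondrially encoded genes, up to 4 called members per direction of other lists, all pairs, and the 15 largest differences and 10 highest levels per direction among called genes with a mean of at least 20 CPM and separate groups. Promoters are from RefSeq (GRCm38.p6), matched by symbol for 11255 genes tested. The deposited files use another build, so gene positions and lengths were not used here. Some genes that the rule takes are not reported here, although they stay in the counts and medians of their lists.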

Additional observations from a re-analysis of the deposited data

How the results depend on the processing

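Under 18 alternatives to the fit (other pseudocounts, filters, scalings, tests and library choices), the genes called numbered 9392 to 11270, except for a test of any difference (limma's eBayes), which called 15500, with 8463 higher in the nuclei and 7037 higher in Neuro2a. Leaving out each library in turn gave 10225 to 10758 calls. No gene called in the fit and in an alternative had opposite directions in them. Quantile scaling gave 4814 genes higher in the nuclei and 5182 higher in Neuro2a and moved the median of all genes by -0.23 on the log2 scale. Leaving mitochondrial, nuclear retained and transgene rows out of the totals moved it by 0.15. Of 107 genes named here and called, 97 were called in every alternative that tested them. The exceptions were Bax, Elavl2, H2-T22, Lin28b, Mycn, Rfc2, Syn3, Tubb3, Vcan and mt-Nd4l. Of 7 named genes that were not called, Actl6a, Dnmt1, Scn9a and Th were called in at least 1 alternative, and the cause was not tested. No paired analysis was possible because the WT mice and the Neuro2a cultures are unrelated units from separate experiments. Depth limits what can be said of genes at or near 1 read, about 0.0477 to 0.0643 CPM, and of genes with a row in 1 table only.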
